A study of Homo sapiens with 12 samples.

Results

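The genes described here are 33 genes of the transforming growth factor beta (TGF-beta) pathway and its transcriptional targets. They are 21 ligands, latency proteins, receptors, SMADs and feedback inhibitors, and 12 contractile, matrix and other target genes. They and the other lists below were chosen by name, with earlier results of these data known. Shares called among them are therefore descriptive and do not test the pathway. A member was read on every probe set whose only gene symbol in the platform annotation was that member, which gave 31 members on 101 probe sets, out of 19775 genes measured in all. ITGB6, on probe sets shared with other symbols, and PTHLH were not analysed here. RNA came from the established cell line MDA-MB-231, grown from a human breast cancer metastasis, in 3 groups of 4 labelled biological replicates A to D. Control cells had received a retroviral short hairpin that targets GFP, shHIF cells carried retroviral hairpins against HIF1a and HIF2a, and Sharp1 cells overexpressed Sharp1, the transcriptional repressor encoded by BHLHE41. All were grown in serum-containing medium and were not otherwise treated. The labels do not say whether a group was 1 clone or a pool, which vector carried Sharp1, or whether the replicates were separate cultures. The p-values therefore reflect only how far these arrays spread, which may be technical. Values are log2 signals on the deposited scale, and differences are log2 differences of group means with limma's standard error (SE) and an adjusted p. A gene was called where that p was under 0.05.

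TGF-beta is secreted as a latent complex tethered to the matrix by latent TGF-beta binding proteins. Once released, it joins the type II and type I receptor kinases, and the type I receptor phosphorylates SMAD2 and SMAD3, which enter the nucleus with SMAD4. Target genes include matrix proteins, actin-binding proteins and inhibitors such as SMAD7, SKIL and PMEPA1 that feed back on the pathway. In breast carcinoma cells of the mesenchymal kind the pathway is known for its part in invasion and metastasis.

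The targeted transcripts were read first. BHLHE41 rose by 5.35 in Sharp1 cells, from 3.89 ± 0.07 in control to 9.24 ± 0.29 (SD, n = 4), on the probe set of its largest rise, and by 1.59 on another. On its brightest probe set by mean over all arrays, the one on which other genes are read here, it fell by 2.06. The cause of this disagreement was not tested. EPAS1, which encodes HIF2a, fell by 2.85 in shHIF cells and HIF1A fell by 0.73. EPAS1 was also lower in Sharp1 cells, where it fell by 0.71. Arrays of 1 group correlated at 0.996 or above and arrays of different groups at 0.995 or below. The line markers VIM, CD44, MSN and AXL were high in every group. Spike-in transcripts read low on shHIF arrays A and D, at 8.38 against 8.56 to 8.93 on the other arrays. Calls that changed when both were left out are given beside the member. The 3′ minus 5′ signal of actin, a sign of RNA quality, was 0.94, 0.90, 0.91 and 0.62 on shHIF arrays A to D, 0.59 to 0.74 on control and 0.56 to 0.85 on Sharp1 arrays.

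In Sharp1 cells the target genes mostly rose, while the signalling genes were split. Of the 11 target members measured, 7 rose and 1 fell against control, with a median difference of 0.54, and TGFBI was the one that fell. Of the 20 signalling members measured, 4 rose, 6 fell and 10 were not called, with a median of -0.038. Over all 31 members 11 rose and 7 fell, against a background of 24.7% of all genes called, 14.0% higher and 10.7% lower, with a median difference of -0.002. Members had bright probe sets, and brighter genes were called more often. Among genes at or above the median probe set, 36.3% of 12590 genes were called, as were 59.3% of the 27 members of that kind. In 19 of the 31 members, 61.3%, no Sharp1 array overlapped a control array, as in 28.9% of all genes.

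In shHIF cells the called members mostly rose, by small amounts on their brightest probe sets. Against control, 13 members rose, 1 fell and 17 were not called, where 28.3% of all genes were called, 16.0% higher and 12.3% lower. The largest difference on a brightest probe set was 0.52, for LTBP1. Other probe sets gave larger called differences, of 0.70 and 0.65 for TGFB2, 0.56 for FN1 and -0.65 for SMAD4. The signalling members gave 7 higher and 1 lower with a median of 0.072, the target members 6 higher and 0 lower (also 0 lower at an unadjusted p under 0.05) with a median of 0.21, and all genes had a median of 0.047. Among bright genes 41% were called, near the 48.1% of bright members. The 3′ to 5′ signal of actin was above every control array on 3 of the 4 shHIF arrays, and its part in these small differences was not tested. In 12 members, 38.7%, the shHIF and control arrays did not overlap, as in 28.6% of all genes.

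As the comparisons above share their control arrays, the Sharp1 and shHIF cells were also compared directly. Sharp1 cells were higher for 11 members and lower for 10, where 36.1% of all genes were called, 17.2% higher and 18.9% lower. Among bright genes 51.2% were called, as were 66.7% of bright members. In 19 members, 61.3%, the Sharp1 and shHIF arrays did not overlap, as in 35.4% of all genes. Of the signalling members 3 were higher and 9 lower in Sharp1 than in shHIF cells, with a median of -0.145, while of the target members 8 were higher and 1 lower, with a median of 0.483. The median over all genes was -0.06.

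**Figure D1:**
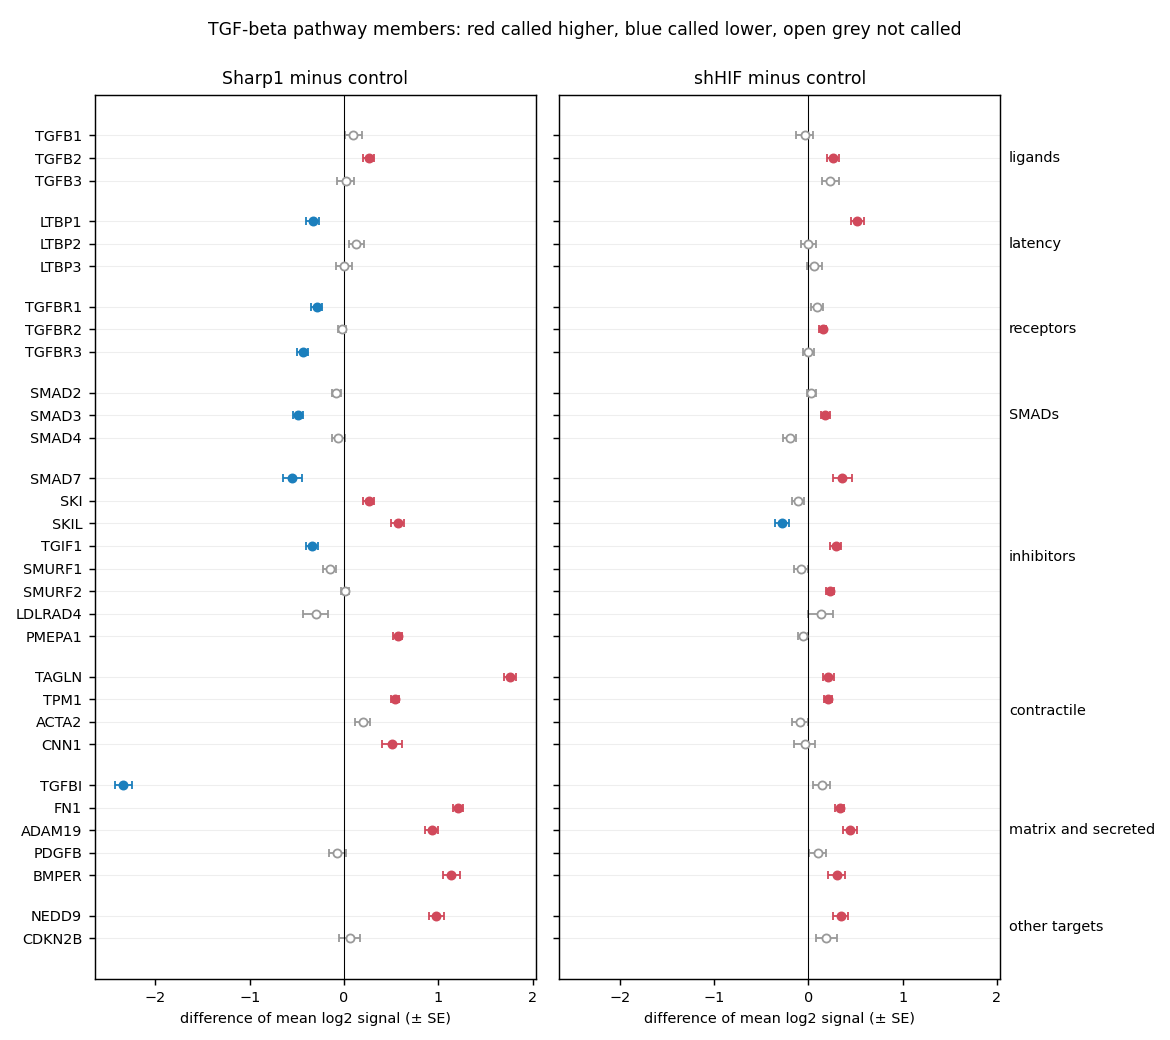
Log2 difference of Sharp1 cells (left) and shHIF cells (right) from control for each of the 31 measured members, grouped by role, with bars of 1 SE on each side; red points were called higher, blue points lower and open grey points not called. In Sharp1 cells TGFBI lies far to the left at -2.34, and TAGLN, FN1 and BMPER lie right of 1. On the brightest probe sets, which are the ones drawn, no member passes 0.52 in shHIF cells.

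Among the ligands, TGFB2 was the one called. Its brightest probe set read 9.52, 9.43, 9.47 and 9.48 on control arrays A to D, 9.77, 9.80, 9.90 and 9.49 in shHIF cells and 9.69, 9.78, 9.70 and 9.76 in Sharp1 cells. The Sharp1 arrays all lay above control, and shHIF array D lay among the control arrays. TGFB2 rose by 0.26 (SE 0.06) in each comparison with control, with adjusted p 0.005 in Sharp1 and 0.00341 in shHIF cells. Its next probe sets by signal, 209909_s_at and 220407_s_at, rose by 0.70 and 0.65 in shHIF cells but differed by 0.00 and -0.18 in Sharp1 cells, neither called. A TGFB2 rise in Sharp1 cells was thus called on 1 of 5 probe sets. Between Sharp1 and shHIF cells the brightest probe set differed by -0.01, not called. There 209909_s_at and 220407_s_at differed by -0.70 and -0.83, both called.

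TGFB1, the ligand most studied in carcinoma, read 7.32, 7.15, 7.28 and 7.30 in control, 7.11, 7.19, 7.28 and 7.31 in shHIF and 7.40, 7.04, 7.67 and 7.36 in Sharp1 cells. The 3 groups overlapped and no difference was called. TGFB3 read 5.88, 5.98, 5.78 and 5.80 in control, 6.21, 6.12, 6.05 and 5.96 in shHIF and 6.03, 5.90, 5.80 and 5.80 in Sharp1 cells. It was not called, and its difference in shHIF cells was 0.23 (adjusted p = 0.0743), which passed the threshold without shHIF array D (adjusted p = 0.0476).

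LTBP1, which ties latent TGF-beta to fibrillin and fibronectin in the matrix, was lowest in Sharp1 and highest in shHIF cells. It read 7.89, 7.91, 7.86 and 7.94 in control, 8.27, 8.47, 8.53 and 8.40 in shHIF and 7.67, 7.55, 7.48 and 7.60 in Sharp1 cells. No group overlapped another. LTBP1 fell by 0.33 (SE 0.07, adjusted p = 0.000683) in Sharp1 cells, rose by 0.52 (adjusted p = 2.08e-06) in shHIF cells, and was 0.84 lower in Sharp1 than in shHIF cells. Its other probe set changed in the same directions, by -0.35 and 0.26. LTBP2 and LTBP3, of the same family, were not called on their brightest probe sets, and the other probe sets of LTBP3 rose by 0.29 and 0.72 in Sharp1 cells.

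Of the receptors, TGFBR1 and TGFBR3 fell in Sharp1 cells on their brightest probe sets. TGFBR1, the type I receptor kinase, fell by 0.29 (adjusted p = 0.00107), from 10.17 ± 0.04 to 9.88 ± 0.05, and differed by 0.09 in shHIF cells, where it was not called. That difference was 0.16 without shHIF array D (adjusted p = 0.0328) and 0.21 without arrays A and D (adjusted p = 0.0047), called in both cases. TGFBR3, or betaglycan, a co-receptor that presents TGFB2, fell by 0.44 in Sharp1 cells (adjusted p = 7.19e-06), from 8.57 ± 0.03 to 8.14 ± 0.02, and read 8.57 ± 0.12 in shHIF cells. TGFBR2, the type II receptor kinase that binds ligand first, differed by -0.02 in Sharp1 cells and rose by 0.15 in shHIF cells (adjusted p = 0.00978), a call lost without shHIF arrays A and D together (0.11, adjusted p = 0.136). Its other, dimmer probe set, 207334_s_at, fell by 0.34 in Sharp1 cells (adjusted p = 0.0127), and the mean of its probe sets differed there by -0.18 (adjusted p = 0.0229). All 3 receptors were lower in Sharp1 than in shHIF cells, by 0.37, 0.18 and 0.43 for TGFBR1, TGFBR2 and TGFBR3. For TGFBR2 that call too was lost without shHIF arrays A and D (adjusted p = 0.0512).

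SMAD3, the receptor-activated SMAD that binds DNA directly, fell in Sharp1 cells. It read 9.66, 9.63, 9.63 and 9.69 in control, 9.83, 9.85, 9.87 and 9.78 in shHIF and 9.13, 9.05, 9.28 and 9.20 in Sharp1 cells, and the 3 groups did not overlap. The fall was 0.49 (SE 0.05, adjusted p = 9.29e-08) and was called on 3 of its 4 probe sets. The rise in shHIF cells was 0.18 (adjusted p = 0.011), and Sharp1 cells were 0.67 lower than shHIF cells. SMAD2, its partner, and SMAD4, the common SMAD, were not called on their brightest probe sets. SMAD4 differed by -0.20 in shHIF cells (adjusted p = 0.0607), passed the threshold without control array C or shHIF array C (adjusted p = 0.0412 and 0.00667), and fell on 3 other probe sets, by 0.50, 0.65 and 0.39.

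The inhibitors did not move as a block. SMAD7, the inhibitory SMAD that blocks the type I receptor, and TGIF1, a homeodomain co-repressor of SMAD2, fell in Sharp1 cells, whereas SKI and SKIL, co-repressors that bind SMAD complexes, and PMEPA1, a membrane protein that sequesters SMAD2 and SMAD3, rose. SMAD7 read 5.72, 5.93, 5.63 and 6.09 in control, 6.07, 6.26, 6.20 and 6.28 in shHIF and 5.16, 5.32, 5.34 and 5.34 in Sharp1 cells. All Sharp1 arrays lay below all others, while shHIF array A lay within the control range. The fall in Sharp1 cells was 0.55 (SE 0.10, adjusted p = 0.00024). The rise in shHIF cells was 0.36 (adjusted p = 0.0104) and was not called without control array C (0.29, adjusted p = 0.0524).

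TGIF1 read 8.72, 8.73, 8.74 and 8.88 in control, 8.88, 9.14, 9.14 and 9.08 in shHIF and 8.41, 8.42, 8.50 and 8.37 in Sharp1 cells. It fell by 0.34 in Sharp1 cells (adjusted p = 0.000231) and rose by 0.29 in shHIF cells (adjusted p = 0.00106), with control array D level with the lowest shHIF array. SKIL took the opposite course. It read 8.68, 8.65, 8.60 and 8.67 in control, 8.42, 8.42, 8.53 and 8.13 in shHIF and 9.39, 9.14, 9.16 and 9.21 in Sharp1 cells, with no overlap between groups. SKIL rose by 0.57 (SE 0.07, adjusted p = 1.62e-06) with Sharp1 overexpressed and fell by 0.28 in shHIF cells (adjusted p = 0.00659), the only member called lower there, a call lost without shHIF arrays A and D (adjusted p = 0.0953).

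PMEPA1 read 9.68, 9.58, 9.59 and 9.69 in control, 9.51, 9.70, 9.56 and 9.55 in shHIF and 10.18, 10.19, 10.26 and 10.19 in Sharp1 cells. Every Sharp1 array lay above every other array, and control and shHIF overlapped. It rose by 0.57 in Sharp1 cells (SE 0.05, adjusted p = 4.18e-09) on its brightest probe set and was called on all 3, and in shHIF cells its difference of -0.06 was not called. SKI rose by 0.26 in Sharp1 cells (adjusted p = 0.00135) and differed by -0.11 in shHIF cells. Of the ubiquitin ligases that remove receptors and SMADs, SMURF1 was not called on its brightest probe set and SMURF2 rose by 0.23 in shHIF cells (adjusted p = 0.000242). SMURF1 probe set 215458_s_at fell by 0.28 in Sharp1 cells (adjusted p = 0.0189) and rose by 0.27 in shHIF cells (adjusted p = 0.0176). SMURF2 probe set 227489_at rose by 0.20 in Sharp1 cells (adjusted p = 0.000831). LDLRAD4, a membrane relative of PMEPA1, differed by -0.30 in Sharp1 cells (adjusted p = 0.127), which passed the threshold without Sharp1 array B (adjusted p = 0.00999). It was 0.43 lower in Sharp1 than in shHIF cells (adjusted p = 0.0127), a call lost without shHIF array A or Sharp1 array D (adjusted p = 0.0579 for each), or without shHIF arrays A and D (adjusted p = 0.147).

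**Figure D2:**
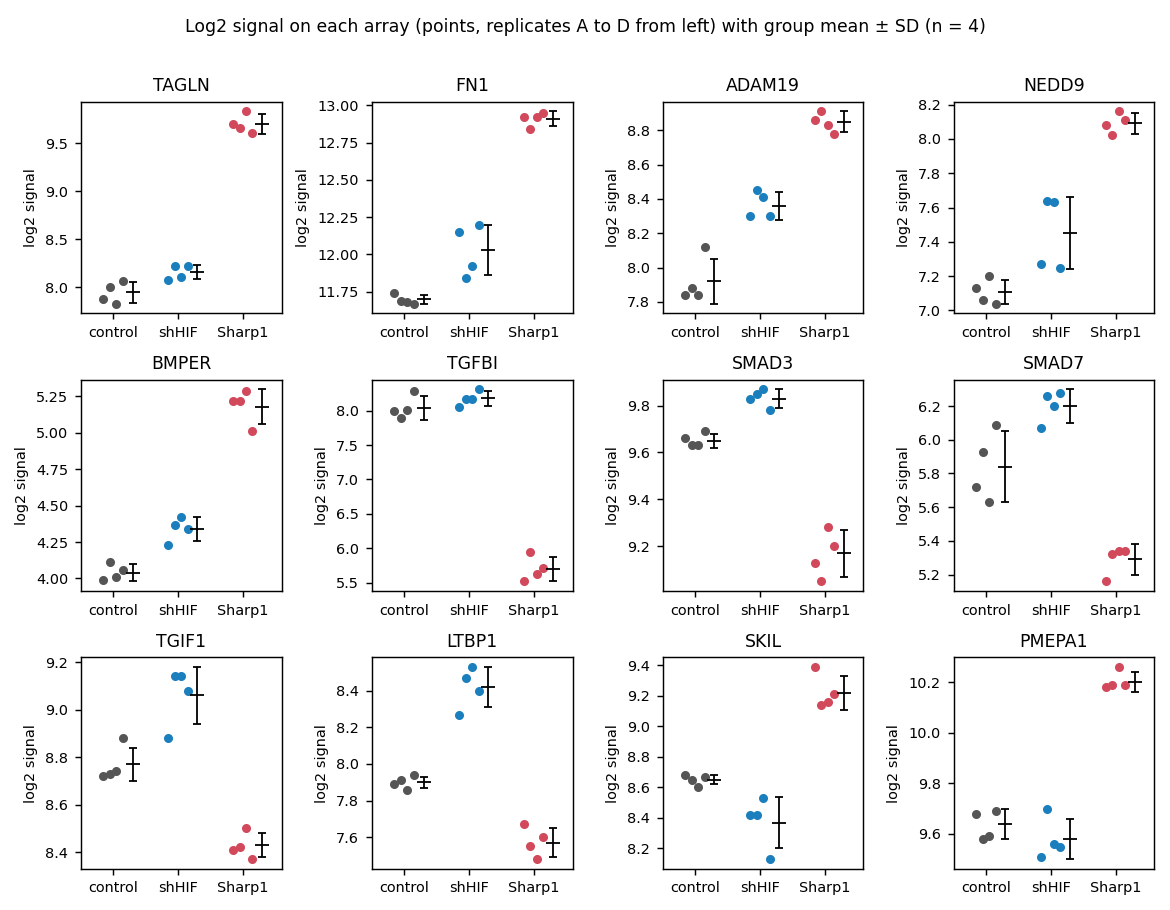
Log2 signal on each of the 12 arrays for 12 of the 14 members called with a difference of at least 0.5 in a comparison (TPM1 and CNN1 are not drawn), on the brightest probe set, with each group's mean ± SD (n = 4) beside its points; each panel has its own axis, which does not start at 0. TGFBI falls from near 8 to between 5.52 and 5.94 in Sharp1 cells, while TAGLN rises to between 9.61 and 9.83.

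Of the contractile targets, TAGLN rose most. TAGLN encodes transgelin, an actin-bundling protein of smooth muscle that SMADs induce. It read 7.88, 8.0, 7.83 and 8.07 in control, 8.08, 8.22, 8.11 and 8.22 in shHIF and 9.70, 9.66, 9.83 and 9.61 in Sharp1 cells. The Sharp1 arrays stood well above the rest, and the shHIF arrays lay just above control. The rise in Sharp1 cells was 1.76 (SE 0.06, 3.38-fold, adjusted p = 7.66e-16). The rise in shHIF cells was 0.21 (adjusted p = 0.0192), and was not called without control array A or C or shHIF array B or D (adjusted p = 0.0669, 0.0805, 0.0587 and 0.0527), nor without shHIF arrays A and D together (adjusted p = 0.0522).

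TPM1, a tropomyosin that lines actin filaments, read 11.17, 11.19, 11.11 and 11.21 in control, 11.39, 11.40, 11.43 and 11.29 in shHIF and 11.64, 11.72, 11.75 and 11.72 in Sharp1 cells. The 3 groups formed separate steps. TPM1 was called in both comparisons with control, with a rise of 0.54 (SE 0.04, adjusted p = 1.58e-10) for Sharp1 and 0.21 (adjusted p = 0.000256) for shHIF, and the step from shHIF to Sharp1 was 0.33. CNN1, calponin of smooth muscle, read 4.52, 4.77, 4.76 and 4.70 in control, 4.64, 4.61, 4.71 and 4.64 in shHIF and 4.97, 5.52, 5.06 and 5.22 in Sharp1 cells. It rose by 0.51 in Sharp1 cells (adjusted p = 0.00144), although on most arrays it lay below the median probe set, 5.41, where background is a large part of the signal. ACTA2, smooth muscle actin, differed by 0.20 in Sharp1 cells without overlap but was not called (adjusted p = 0.0955), and passed the threshold with shHIF arrays A and D left out of the fit (adjusted p = 0.036). It was 0.29 higher in Sharp1 than in shHIF cells (adjusted p = 0.00781), a call lost without shHIF arrays A and D (adjusted p = 0.242).

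The matrix and secreted targets held both the largest rise after TAGLN and the largest fall. TGFBI, a secreted matrix protein named for its induction by TGF-beta, read 7.99, 7.89, 8.01 and 8.28 in control, 8.05, 8.17, 8.17 and 8.31 in shHIF and 5.52, 5.94, 5.62 and 5.72 in Sharp1 cells. Control and shHIF arrays overlapped and all Sharp1 arrays lay far below them. The fall was 2.34 (SE 0.09, 5.06-fold, adjusted p = 2.49e-15), and the shHIF difference of 0.14 was not called. FN1, fibronectin, read 11.74, 11.69, 11.68 and 11.67 in control, 12.15, 11.84, 11.92 and 12.20 in shHIF and 12.92, 12.84, 12.92 and 12.95 in Sharp1 cells. It rose by 1.21 in Sharp1 cells (SE 0.05, 2.32-fold, adjusted p = 2.57e-14), on all 7 of its probe sets, and by 0.33 in shHIF cells (adjusted p = 5.58e-05).

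ADAM19, a membrane metalloprotease, read 7.84, 7.88, 7.84 and 8.12 in control, 8.30, 8.45, 8.41 and 8.30 in shHIF and 8.86, 8.91, 8.83 and 8.78 in Sharp1 cells. It rose by 0.93 in Sharp1 cells (adjusted p = 1.32e-10) and by 0.44 in shHIF cells (adjusted p = 1.83e-05). BMPER, a secreted protein that binds bone morphogenetic proteins, read 3.99, 4.11, 4.01 and 4.06 in control, 4.23, 4.37, 4.42 and 4.34 in shHIF and 5.22, 5.22, 5.29 and 5.01 in Sharp1 cells. All 12 values lay under the median probe set. The rise in Sharp1 cells was 1.14 (SE 0.09, adjusted p = 1.83e-09) and that in shHIF cells 0.30 (adjusted p = 0.0263). The shHIF call was lost without control array A or C or shHIF array B or C (adjusted p = 0.0715, 0.0584, 0.0568 and 0.0643). PDGFB, a growth factor for fibroblasts and pericytes, was not called in any comparison.

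NEDD9, a scaffold of focal adhesions, read 7.13, 7.06, 7.20 and 7.04 in control, 7.27, 7.64, 7.63 and 7.25 in shHIF and 8.08, 8.02, 8.16 and 8.11 in Sharp1 cells. The groups did not overlap, and shHIF arrays A and D were the lower pair of their group. NEDD9 rose by 0.98 in Sharp1 cells (adjusted p = 3.26e-09) and by 0.34 in shHIF cells (adjusted p = 0.00454). CDKN2B, the cell cycle inhibitor that TGF-beta induces in epithelial cells, read 4.08 ± 0.22 in control, 4.27 ± 0.03 in shHIF and 4.14 ± 0.12 in Sharp1 cells (SD, n = 4), under the median probe set, and was not called.

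Markers of other cell types were set beside the contractile and matrix genes. Of 8 smooth muscle markers, limma called 0 in either comparison with control, and 1 was higher at an unadjusted p under 0.05 in each. Between Sharp1 and shHIF cells 2 of the 8 were higher and 1 lower, 37.5%, where 36.1% of all genes were called. As group means, the myosin MYH11 read 5.46 to 5.69, just above the median probe set, 5.41. The co-activator MYOCD read 4.10 to 4.26, under it, and SMTN read 8.08 to 8.33. Of the 8 markers, 4 were under the median probe set in control, 3 in shHIF and 3 in Sharp1 cells. The summed linear signal of all 8 markers was 549 to 605 on control arrays, 529 to 579 on shHIF arrays and 566 to 625 on Sharp1 arrays. Of 8 fibroblast markers, 2 were called in each comparison, all higher. That is 25%, against 24.7% of all genes in Sharp1 and 28.3% in shHIF cells. They were COL3A1 by 0.54 and PDGFRB by 0.32 in Sharp1 cells, and COL3A1 by 0.34 and PDGFRA by 0.29 in shHIF cells. The summed signal of that list was 390 to 434 in control, 408 to 456 in shHIF and 380 to 456 in Sharp1 cells. As group means, its markers LUM and FAP read 3.55 to 3.62 and 4.08. COL1A1, PDGFRB and THY1 read 7.40 to 7.57, 6.06 to 6.38 and 5.50 to 5.73, above the median probe set. Of 4 leukocyte markers, PTPRC was the 1 called, by 0.44 in Sharp1 and 0.37 in shHIF cells. That is 25% in each, beside the same 24.7% and 28.3% of all genes. The summed leukocyte signal was 121 to 143 in control, 129 to 149 in shHIF and 122 to 149 in Sharp1 cells. Of 8 luminal epithelial markers, 2 rose and 1 fell in Sharp1 cells, and 1 rose and 3 fell in shHIF cells. That is 37.5% and 50%, against 24.7% and 28.3% of all genes and 36.3% and 41% of bright genes. The summed luminal signal was 4580 to 5080 in control, 2550 to 2930 in shHIF and 5240 to 6190 in Sharp1 cells. In shHIF cells the keratin KRT19 fell by 1.13, the receptor ERBB3 by 1.19 and the adhesion protein EPCAM by 0.34, and GATA3 rose by 0.25. In Sharp1 cells KRT19 rose by 0.38 and ERBB3 by 0.31, and EPCAM fell by 0.62. As group means, PGR, FOXA1 and CDH1 were under the median probe set in every group, while GATA3, EPCAM, KRT19 and ERBB3 lay above it. ESR1 also lay above it, at 6.27 to 6.46, and was not called in any comparison. A level above the median probe set does not by itself show that a gene is expressed. The part of fibroblasts, leukocytes or luminal cells in the results was not tested. In bulk RNA, a change in the share of cells and a change per cell cannot be told apart.

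The promoters of the target genes that changed most in Sharp1 cells are shown because the overexpressed protein is a DNA-binding repressor that recognises E-boxes, and SMADs bind DNA themselves. The windows hold the 250 bases before the most upstream listed start, in RefSeq's GRCh38.p14, written 5′ to 3′ on the gene's strand. TAGLN, on chromosome 11 from 117199294 to 117207465, had no entry. The 3 members whose windows hold an E-box, SMAD3, TGFB2 and TGFB3, were added after their values were seen. In Sharp1 cells SMAD3 fell by 0.49, TGFB2 rose by 0.26 on its brightest probe set and TGFB3 was not called. Capitals mark the E-box CACGTG, the SMAD element CAGAC on either strand and the GC-rich SMAD site GGCGCC. The windows are TGFBI at chr5:136028738-136028987 (plus strand), FN1 at chr2:215436069-215436318 (minus), BMPER at chr7:33904665-33904914 (plus), NEDD9 at chr6:11382349-11382598 (minus), SMAD3 at chr15:67065352-67065601 (plus), TGFB2 at chr1:218345086-218345335 (plus) and TGFB3 at chr14:75983012-75983261 (minus).
TGFBI: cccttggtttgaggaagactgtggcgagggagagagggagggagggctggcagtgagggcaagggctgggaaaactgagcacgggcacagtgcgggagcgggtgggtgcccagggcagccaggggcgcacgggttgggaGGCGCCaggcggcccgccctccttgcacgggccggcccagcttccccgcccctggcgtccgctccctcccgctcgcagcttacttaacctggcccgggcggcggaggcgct
FN1: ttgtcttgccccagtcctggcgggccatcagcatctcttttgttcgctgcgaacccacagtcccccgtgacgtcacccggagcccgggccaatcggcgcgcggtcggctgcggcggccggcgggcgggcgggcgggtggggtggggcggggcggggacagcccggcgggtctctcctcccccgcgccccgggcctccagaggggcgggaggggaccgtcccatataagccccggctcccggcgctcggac
BMPER: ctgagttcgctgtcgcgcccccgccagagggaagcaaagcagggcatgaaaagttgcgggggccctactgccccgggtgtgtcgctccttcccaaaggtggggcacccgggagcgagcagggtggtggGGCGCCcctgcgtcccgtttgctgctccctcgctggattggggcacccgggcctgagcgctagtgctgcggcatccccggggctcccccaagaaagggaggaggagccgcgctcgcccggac
NEDD9: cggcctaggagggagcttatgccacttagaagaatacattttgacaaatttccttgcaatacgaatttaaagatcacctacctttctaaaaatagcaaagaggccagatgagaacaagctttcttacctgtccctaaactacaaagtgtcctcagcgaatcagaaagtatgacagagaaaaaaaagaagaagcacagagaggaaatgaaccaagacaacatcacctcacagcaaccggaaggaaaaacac
SMAD3: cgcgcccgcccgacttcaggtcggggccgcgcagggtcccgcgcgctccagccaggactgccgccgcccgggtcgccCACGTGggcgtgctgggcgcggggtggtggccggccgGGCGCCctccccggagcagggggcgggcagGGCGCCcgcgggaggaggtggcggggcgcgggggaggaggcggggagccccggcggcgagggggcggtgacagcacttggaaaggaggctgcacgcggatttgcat
TGFB2: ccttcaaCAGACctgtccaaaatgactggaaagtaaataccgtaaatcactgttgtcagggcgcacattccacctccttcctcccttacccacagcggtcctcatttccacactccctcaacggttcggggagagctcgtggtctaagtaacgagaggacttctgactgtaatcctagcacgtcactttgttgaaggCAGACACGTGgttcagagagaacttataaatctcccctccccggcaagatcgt
TGFB3: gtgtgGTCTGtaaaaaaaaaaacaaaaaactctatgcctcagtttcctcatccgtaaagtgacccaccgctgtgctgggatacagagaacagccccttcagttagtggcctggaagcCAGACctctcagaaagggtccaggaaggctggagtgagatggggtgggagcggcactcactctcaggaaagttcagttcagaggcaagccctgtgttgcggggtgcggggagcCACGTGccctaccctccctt

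Motifs were searched on both strands in these windows and in all 35116 promoter windows of the table. The E-box CACGTG was in 6.34% of all windows and in those of 3 of the 28 members with an entry, SMAD3, TGFB2 and TGFB3. The SMAD element CAGAC was in 38.0% of all windows and in 11 of the 28 members, and GGCGCC was in 16.4% and in 9 of the 28. The AP-1 site TGANTCA, in 6.57% of all windows, the SMAD palindrome GTCTAGAC, in 0.182%, and the CArG box of contractile genes, in 1.16%, were found in 0 of the 28. The hypoxia response cores ACGTG and GCGTG, the first of which lies within the E-box, were in 18.5% and 32.2% of all windows and in 7 and 8 of the 28. TGFBI and BMPER each held GGCGCC once, FN1 and NEDD9 held none of the motifs searched, and SMAD3 held the E-box once, GGCGCC at a pair of places and both hypoxia cores. TGFB2 and TGFB3 each held the E-box once and CAGAC 2 times, and in TGFB2 an E-box and a CAGAC share a base, from 53 to 44 bases before the start. These matches describe letters in a window and not binding.

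Probe sets of a member did not always move together. Of the 101 probe sets, 28 rose and 14 fell in Sharp1 cells, where 18.1% of all 54613 probe sets were called (9.82% higher and 8.26% lower), and 0 members had probe sets called in opposite directions. In shHIF cells 32 rose and 6 fell, where 22.2% of all were called (10.7% higher and 11.5% lower), and SMAD2 and SMURF2 had opposite calls. SMAD2 probe sets 203076_s_at and 203077_s_at rose by 0.22 and 0.27 while 226563_at fell by 0.26. SMURF2 rose by 0.23 on its brightest probe set while 232020_at fell by 0.34. TAGLN rose by 1.76 and 1.99 in Sharp1 cells on 1555724_s_at and 205547_s_at, but on 226523_at, the only one of its probe sets whose suffix does not mark probes shared between transcripts, the difference of 0.10 was not called. On their brightest probe sets without that mark, TPM1 differed by 0.09 in Sharp1 cells (adjusted p = 0.617), TGFBR1 by -0.30 (adjusted p = 0.123) and TGIF1 by -0.19 (adjusted p = 0.223). With the mean of a gene's probe sets, the Sharp1 differences of TGFB2 and SKI were 0.00 and 0.08, and the shHIF differences of TGFBR2, SMAD3, TGIF1 and TPM1 were 0.05, 0.07, 0.09 and 0.11, none of them called. Between Sharp1 and shHIF cells, the means of SKI, ACTA2 and NEDD9 differed by 0.09, 0.04 and 0.05, again not called. In that comparison the means of TGFB2, SMAD4 and SMURF1 differed by -0.37, 0.25 and -0.22. These were called, although their brightest probe sets were not.

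**Figure D3:**
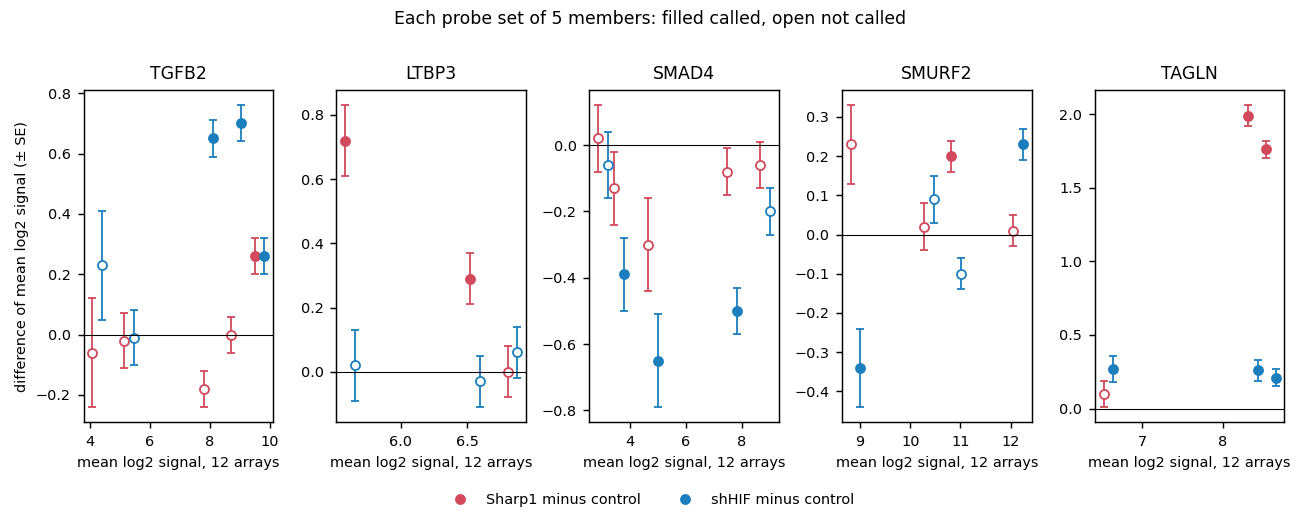
Log2 difference from control of every probe set of TGFB2, LTBP3, SMAD4, SMURF2 and TAGLN against the probe set's mean log2 signal over the 12 arrays, for Sharp1 (red) and shHIF cells (blue), drawn slightly apart, with bars of 1 SE on each side and filled points for called probe sets. TAGLN has a pair of high points and one near 0.10 in Sharp1 cells, and TGFB2 has its shHIF rises of 0.65 and 0.70 on probe sets where Sharp1 cells differ by -0.18 and 0.00.

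Other genes of the pathway were read by list, and their shares called stand against 24.7% of all genes and 36.3% of bright genes in Sharp1 cells, and 28.3% and 41% in shHIF cells. Of 37 other TGF-beta target genes measured, 20 rose and 7 fell in Sharp1 cells with a median difference of 0.293, while 8 rose and 12 fell in shHIF cells with a median of -0.025, which is 73% and 54.1% called. The median over all genes was -0.002 and 0.047. The called rises in Sharp1 cells were led by COL4A1, a basement membrane collagen, by 1.13, TNC, tenascin C, by 1.08 and the cytokine IL11 by 0.98. The falls were led by KLF10, an early TGF-beta response transcription factor, by 1.44, SNAI2, a repressor of epithelial genes, by 1.39 and BHLHE40, the close relative of Sharp1, by 0.51. In shHIF cells COL5A1 rose by 0.50, KLF10 by 0.48 and JUNB by 0.36, and IGFBP3 fell by 0.83, CCN2 by 0.61 and VCL by 0.59.

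Of 24 other SMADs and regulators, 7 rose and 5 fell in Sharp1 cells, and 3 rose and 9 fell in shHIF cells. This is 50% called in each, against 24.7% and 28.3% of all genes. SMAD9, a SMAD of the BMP branch, rose by 1.39 in Sharp1 and fell by 0.75 in shHIF cells. The adaptor DAB2 rose by 0.81 and TGFB1I1, a focal adhesion co-regulator, by 0.54 in Sharp1 cells, and USP4 fell by 0.35, SMAD5 by 0.31 and the ubiquitin ligase WWP1 by 0.30. In shHIF cells WWP1 fell by 0.78 and MAP3K7, the TAK1 kinase, by 0.87, and STUB1 rose by 0.30, TGIF2 by 0.29 and FKBP1A by 0.26.

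Of 13 other latency and receptor genes, 3 rose and 1 fell in Sharp1 cells, and 3 rose and 2 fell in shHIF cells. These shares, 30.8% and 38.5%, lie between those of all genes (24.7% and 28.3%) and of bright genes (36.3% and 41%), near the background. THBS1, thrombospondin, an activator of latent TGF-beta, rose by 0.66 in Sharp1 cells, and NRROS, which tethers latent TGF-beta on myeloid cells, fell by 0.73. BAMBI, a decoy receptor, rose by 0.43 in Sharp1 and 0.33 in shHIF cells, and FURIN, which cleaves the TGF-beta precursor, by 0.38 and 0.35. Of the integrins that release latent TGF-beta, ITGB8 rose by 1.04 in shHIF cells, while ITGAV fell by 0.54 and ITGB5 by 0.14.

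**Figure D4:**
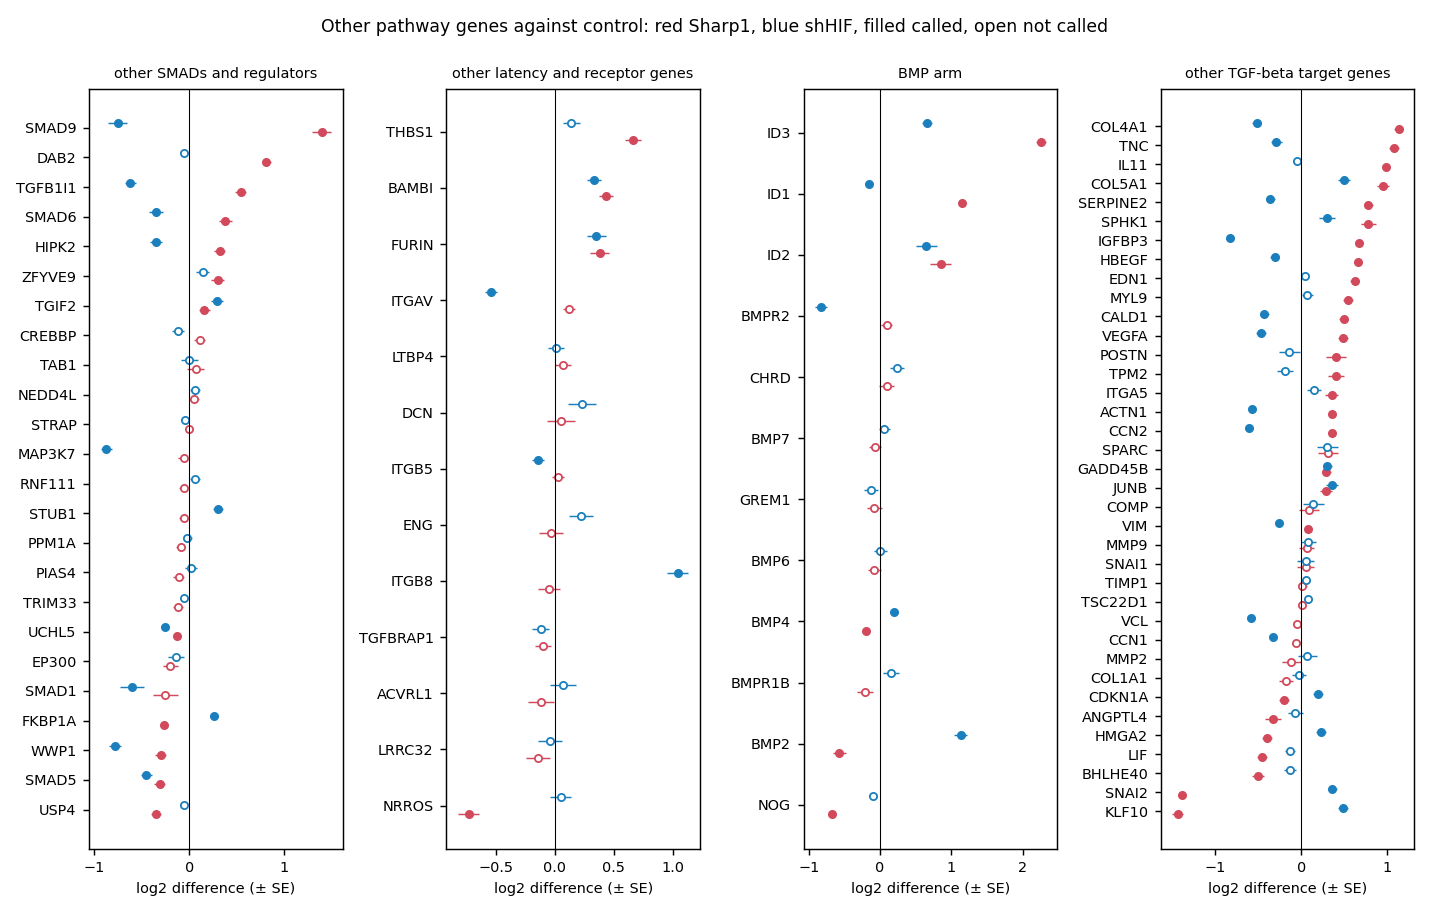
Log2 difference from control of the other pathway genes in Sharp1 cells (red) and shHIF cells (blue), by list, with 1 point per gene on its brightest probe set, bars of 1 SE on each side and filled points for called genes. In Sharp1 cells KLF10 at -1.44 and SNAI2 at -1.39 are the lowest of the other target genes, and ID3 at 2.25 is the highest of the BMP arm.

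Of 12 genes of the bone morphogenetic protein (BMP) arm, 3 rose and 3 fell in Sharp1 cells, and 4 rose and 2 fell in shHIF cells, 50% called in each, where 24.7% and 28.3% of all genes were called. The rises in Sharp1 cells were the ID genes, direct BMP targets that inhibit helix-loop-helix factors: ID3 by 2.25, ID1 by 1.15 and ID2 by 0.85. The secreted BMP antagonist NOG fell by 0.68, and the ligands BMP2 and BMP4 fell by 0.57 and 0.20. In shHIF cells BMP2 rose by 1.13, ID3 by 0.66 and ID2 by 0.65, and the receptor BMPR2 fell by 0.83 and ID1 by 0.16.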

How the data were processed

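RNA of 12 arrays was read on 54675 probe sets. The deposited values are log2 signals made by the authors with RMA, per the submitters' processing notes. RMA's version: not given in the sources used here. RMA summarises probes across arrays, so values carry no depth, small differences near background are compressed, and the number of arrays limits the precision. Gene names came from the platform's annotation, in which 41091 probe sets had 1 symbol, 1801 several and 11721 none.

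limma 3.58.1 in R 4.3.3 fitted a mean per group to 54613 non-control probe sets over 12 arrays. Contrasts were tested after eBayes with trend and adjusted by Benjamini-Hochberg over all probe sets of a comparison. A gene was read on its brightest probe set by mean over all arrays, with BHLHE41 given on others too. Per-array values are given for the ligands and for members called with a difference of at least 0.5 in a comparison. For each other list, the 3 largest called rises and falls against control are named. The members and lists were chosen with earlier results of these data known. The fit was tested on simulated data. Sequences and motifs come from RefSeq's promoter table, GRCh38.p14. In all, 23 alternatives were run.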

Additional observations from a re-analysis of the deposited data

Results flagged for a closer look

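In 5 of 93 groups of 4 arrays, 1 array stood apart from the other 3 by the gap test of Dixon at its 95% critical value, and chance flags about 1 group in 20. LTBP2 read 7.03 on Sharp1 array D, against 6.80 to 6.83 on the other Sharp1 arrays. SMAD7 read 5.16 on Sharp1 array A, against 5.32 to 5.34. TGIF1 read 8.88 on control array D, against 8.72 to 8.74 on the other control arrays. PMEPA1 read 10.26 on Sharp1 array C, against 10.18 to 10.19. ADAM19 read 8.12 on control array D, against 7.84 to 7.88.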

How the results depend on the processing

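Of the 18 members called in Sharp1 against control, 12 were called under every alternative that held them and 6 were lost under some. Of 14 in shHIF cells these counts were 4 and 10, and of 21 between Sharp1 and shHIF cells 12 and 9. BMPER and CNN1 were not held by the run without dim probe sets. In that run 9 members rather than 11 were higher in Sharp1 cells than in control. The choice of probe set turned the sign of some differences. Only SMURF2 between Sharp1 and shHIF cells was called both ways, at -0.22 on its brightest probe set. LTBP3 was called with the mean but not on its brightest probe set. The other turned differences given below were not called after the change. With the mean of a gene's probe sets, the Sharp1 difference of TGFB2 was 0.00 and that of LTBP3 0.34, the shHIF difference of SMURF2 was -0.03, and between Sharp1 and shHIF cells LTBP3 gave 0.32 and SMURF2 0.14. With the brightest probe set whose suffix does not mark shared probes, the shHIF differences were -0.01 for TGIF1, -0.10 for SMURF2, -0.14 for TPM1 and -0.22 for FN1, and between Sharp1 and shHIF cells SMURF2 gave 0.29 and TAGLN -0.17. The count of members higher in shHIF cells fell from 13 to 8 with the mean of probe sets. The count lower there, 1, was 2 without dim probe sets, with 1 probe set per gene, with the mean and with the unshared probe sets, 0 without shHIF arrays A and D, and 1 to 2 with single arrays left out. The share of all probe sets called in Sharp1 against control, 18.1%, was 35.5% without dim probe sets and 27.2% with 1 probe set per gene. Without dim probe sets it was 41.5% in shHIF against control, from 22.2%, and 51.7% between Sharp1 and shHIF cells, from 29.1%. With the replicate letter as a replicate block these shares were 17.3%, 21.2% and 28.2%, and the counts of members higher and lower were the same. Only 1 of 12 same-letter pairs of arrays had deviations that correlated over 0.1, and 1 of 12 arrays correlated best with its own letter. The cause of these moves was not tested.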
